A study of Homo sapiens with 4 samples.

Results

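The genes of 7 caspases and of gasdermin D were followed in SNU638 cells, a line established from human gastric cancer: CASP1, CASP2, CASP4, CASP6, CASP8, CASP9, CASP10 and GSDMD. They were taken by gene symbol, which gave 8 of the 46427 genes in the count table. RNA was sequenced from YTHDF1-overexpressed cells and from cells with the control vector, each as biological replicates 1 and 2. YTHDF1 is a reader protein of N6-methyladenosine in RNA. All 4 cultures had been kept without serum for 24 h and then received IFN-γ at 10 ng/ml, for 8 h by the sample labels, so no untreated cells enter any comparison below. The question of the study was how YTHDF1 overexpression bears on the response to IFN-γ. The cells are a single line, and neither the labels nor the methods say what the replicate numbers share across the vectors.

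Caspases are cysteine proteases that cut their substrates after aspartate. The inflammatory caspases CASP1 and CASP4 cut gasdermin D, whose freed end forms pores in the plasma membrane and so causes the lytic death called pyroptosis. CASP1 is switched on by inflammasomes and also matures the cytokines IL-1β and IL-18, whereas CASP4 binds bacterial lipopolysaccharide in the cytosol. The apoptotic caspases are initiators, which are CASP8 and CASP10 at death receptors, CASP9 on the mitochondrial pathway and CASP2 on the PIDDosome, and executioners such as CASP6. Several genes of both arms are known to be induced by interferons.

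Total counts ran from 57398137 to 60864942 per library. YTHDF1 itself was at 82.2 and 80.3 CPM (counts relative to the TMM-scaled library size) in control replicates 1 and 2, and at 16489 and 2627 CPM in YTHDF1 replicates 1 and 2. Its log2 fold change was 6.88 (unadjusted p = 0.00613, adjusted p = 1.00, edgeR's quasi-likelihood test), so the gene that was overexpressed did not pass the adjusted test either. Libraries with the same number lay closer together than libraries with the same vector, with a Pearson correlation of 0.985 and 0.983 against 0.885 and 0.888 for log2 CPM. It was taken over genes, and genes are no independent replicates. Of 5 epithelial markers all were detected, with summed levels from 3859 to 6716 CPM, whereas 4 of 6 markers of differentiated gastric epithelium (TFF1, TFF2, CLDN18 and GKN1) had 0 counts in all 4 libraries. The summed levels were 5.99 to 6.47 CPM for 6 leukocyte markers, where CD68 alone had 5.16 to 6.08 CPM, 5.98 to 10.95 CPM for 4 fibroblast markers and 0.232 to 0.560 CPM for 3 endothelial markers. The epithelial sum was higher in the libraries numbered 2 through the keratins KRT8, KRT18 and KRT19 (log2 fold changes of 0.79, 1.01 and 0.36), whereas the adhesion genes CDH1 and EPCAM were lower there (−0.58 and −0.18, adjusted p = 2.12e-05 and 0.00570). The fibroblast sum was nearly all COL1A1, which was lower in number 2 (−0.91), while DCN had 0 counts in both libraries numbered 1 and 12 and 10 counts in control and YTHDF1 replicate 2. Their part in the results below was not tested, and in bulk RNA a lower level from fewer cells and from less RNA per cell cannot be told apart.

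Each of the 8 genes had at least 116 counts in every library and passed the filter on low counts. Per kilobase of exon, CASP4 was the highest of the 8 genes, with 42.2 ± 10.3 CPM per kb (SD over the 4 libraries). GSDMD followed with 29.5 ± 2.08, CASP8 with 20.4 ± 2.96 and CASP2 with 16.2 ± 1.48 CPM per kb. CASP6 had 10.95 ± 1.03, CASP9 2.33 ± 0.148, CASP1 1.02 ± 0.322 and CASP10 0.780 ± 0.234 CPM per kb. Among neighbours in this order, the ranges over libraries overlapped for CASP4 and GSDMD, for CASP8 and CASP2, and for CASP1 and CASP10. Those neighbours were thus not told apart by their ranges. Within every library CASP1 was nonetheless above CASP10, with 0.775 against 0.646 CPM per kb in control replicate 1 and 1.13 against 1.03 in YTHDF1 replicate 2. In the other pairs the order changed between libraries. The ranges of GSDMD and CASP8 did not overlap here, but they did when the longest coding transcript was taken as the length. Among the inflammatory caspases the message of these cells was thus nearly all CASP4, which gave 96.8% to 97.6% of the summed CPM of CASP1 and CASP4.

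**Figure D1:**
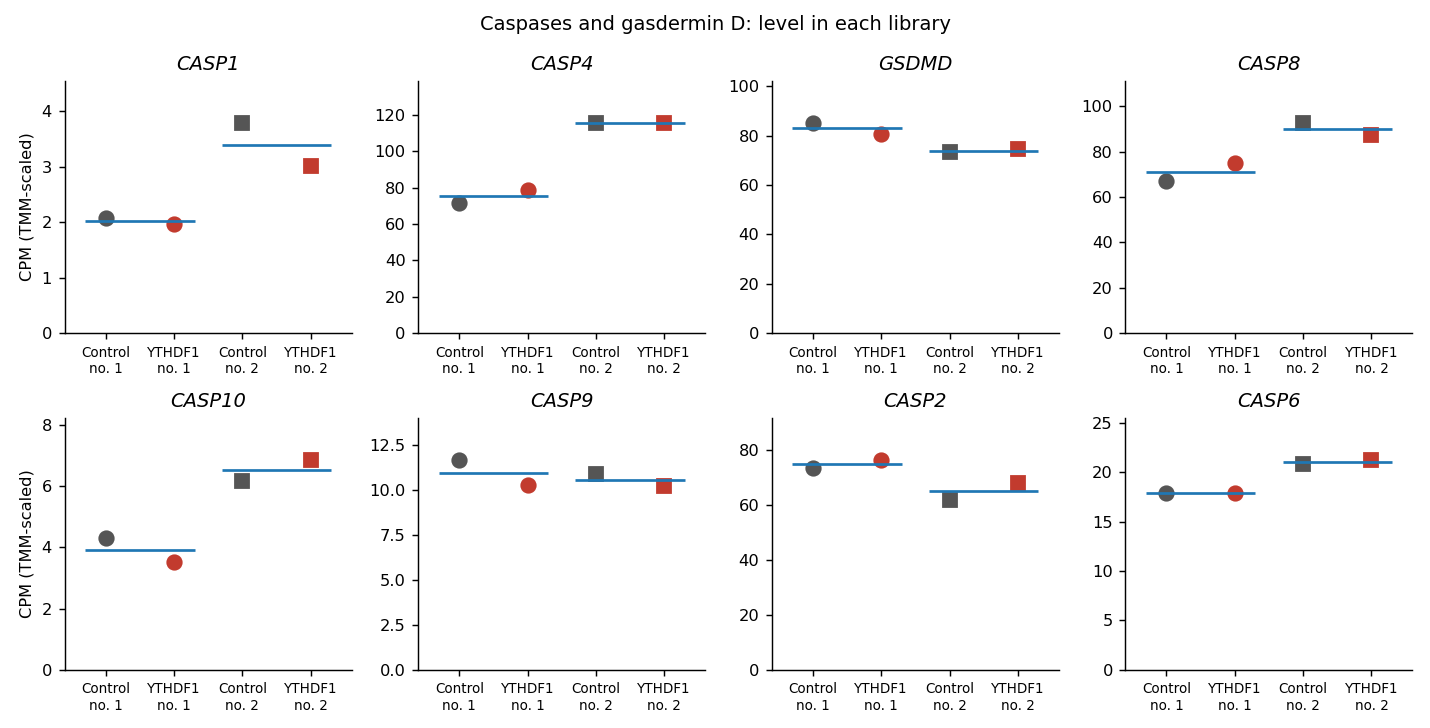
Level of each gene in CPM (TMM-scaled, linear axis from 0) in the 4 libraries, with control in grey, YTHDF1 in red, circles for replicate number 1, squares for number 2 and a blue line at the mean of each number. CASP1, CASP4, CASP8, CASP10 and CASP6 sit higher in both libraries numbered 2, GSDMD and CASP2 sit lower in both, and CASP9 overlaps.

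No caspase and not GSDMD passed the test between YTHDF1-overexpressed cells and control. Genes were called at an adjusted p under 0.05 with a log2 fold change of 0.5 or more in either direction. By this rule edgeR's quasi-likelihood test called 0 of the 8 genes, against 0 of 17781 genes tested (0%). At an unadjusted p under 0.05 it was 0 of the 8 genes, against 0.135% of all genes. At an unadjusted p together with the fold threshold it was 0.101% of all genes. The groups of 2 libraries did not overlap for 1 of the 8 genes, which was CASP9, against 11.5% of all genes. CASP9, the protease that the mitochondrial pathway activates, had 11.7 and 10.9 CPM in control replicates 1 and 2 and 10.2 CPM in both YTHDF1 libraries. Both control libraries were thus above both YTHDF1 libraries, but the log2 fold change was −0.14 with a 95% interval from −0.64 to 0.37.

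The intervals of the other genes were wide, because the spread between the replicates of a vector enters them. For CASP4 the log2 fold change of YTHDF1 against control was 0.06, with a 95% interval from −0.90 to 1.02, and for CASP1 it was −0.23 with an interval from −1.61 to 1.14. For CASP8 it was 0.02 (−0.57 to 0.61) and for CASP10 −0.01 (−1.35 to 1.32). GSDMD had the narrowest interval, −0.36 to 0.30 around −0.03, and the values were 0.10 (−0.28 to 0.48) for CASP2 and 0.01 (−0.51 to 0.54) for CASP6. All 8 adjusted p were 1.00. In this fit the difference between the replicate numbers counts as spread, and these values do not show that the vectors act alike on these genes.

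Between the replicate numbers, by contrast, most of the 8 genes differed. With the same thresholds, CASP1, CASP4 and CASP10 were higher in the libraries numbered 2 than in those numbered 1, and 0 of the 8 were lower, whereas 26.2% of all genes tested were called, 9.96% higher and 16.2% lower. At an adjusted p under 0.05 without the fold threshold, 7 of the 8 genes differed, of which 5 were higher and 2 lower, against 52.6% of all genes, with 23.6% higher and 29.1% lower. The libraries of the 2 numbers did not overlap for 7 of the 8 genes, against 77.1% of all genes tested, where 36.8% were higher and 40.4% lower. The median log2 fold change was 0.29 over the 8 genes and −0.01 over all genes. With 2 libraries a number, 1 control and 1 YTHDF1, the p sets the difference against a spread that includes the vector. The difference between the numbers may be technical. Whether the libraries of a number share a batch is not stated. If they do, they are not independent replicates, and the p values between the numbers overstate the evidence.

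CASP4 had 71.8 and 79.0 CPM in control and YTHDF1 replicate 1, against 115 and 116 CPM in control and YTHDF1 replicate 2. Both libraries numbered 2 were higher, and the vectors within number 2 were nearly level. The log2 fold change of number 2 against number 1 was 0.62 (standard error 0.05, adjusted p = 1.67e-05, edgeR's quasi-likelihood test), which is 1.53-fold. It was 0.69 between the control libraries and 0.55 between the YTHDF1 libraries.

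CASP1 was present at a low level, with 2.07 and 1.97 CPM in control and YTHDF1 replicate 1 and 3.79 and 3.01 CPM in control and YTHDF1 replicate 2. These rest on 123, 116, 215 and 182 counts. The exact 95% Poisson intervals, which cover counting error only, were 1.72 to 2.47 and 1.63 to 2.36 CPM for number 1, and 3.30 to 4.33 and 2.59 to 3.48 CPM for number 2, so the numbers were separated beyond counting error. CASP1 was 1.68-fold higher in number 2 (log2 fold change 0.75, standard error 0.18, adjusted p = 0.00837). The adjusted p was 0.0632 when control replicate 2 was left out, which ended the call, and it ran from 0.00514 to 0.0632 over 11 alternatives.

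GSDMD, the pore former that both inflammatory caspases cut, went the other way. It had 85.1 and 80.7 CPM in control and YTHDF1 replicate 1 and 73.4 and 74.4 CPM in control and YTHDF1 replicate 2. Both libraries numbered 2 were lower, by a log2 fold change of −0.17 (standard error 0.05, adjusted p = 0.0137), which is under the fold threshold of 0.5. Without control replicate 2 the adjusted p was 0.124 and without YTHDF1 replicate 2 it was 0.0888, and the range over 11 alternatives was 0.00555 to 0.124. The ratio of CASP4 to GSDMD in CPM was 0.844 and 0.978 in control and YTHDF1 replicate 1 and 1.57 and 1.55 in control and YTHDF1 replicate 2. In CPM, without scaling for length, the ratio thus lay below 1 in both libraries numbered 1 and above 1 in both numbered 2. Per kilobase of exon, CASP4 and GSDMD had 31.8 and 32.0 CPM per kb in control replicate 1. In YTHDF1 replicate 1 they had 34.9 and 30.4 CPM per kb, so the side of 1 on which number 1 lies depends on the length scaling. GSDMD lies on chromosome 8 (143553387 to 143563062 on GRCh38) and overlaps LOC100310756, which had 576, 392, 474 and 433 counts in control replicates 1 and 2 and YTHDF1 replicates 1 and 2. As the strand setting of the counting is not given in the sources used here, reads on the shared part cannot be assigned with certainty.

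Of the initiators at death receptors, CASP8 had 66.9 and 74.96 CPM in control and YTHDF1 replicate 1, and 92.6 and 87.1 CPM in control and YTHDF1 replicate 2. Both libraries numbered 2 were higher, with a log2 fold change of 0.34 (standard error 0.06, adjusted p = 0.00153) that did not reach the fold threshold. CASP10, its close relative with the same kind of death effector domains, had 4.32 and 3.51 CPM in number 1 and 6.17 and 6.87 CPM in number 2, control before YTHDF1. Its counts were 257, 207, 350 and 415 in the same order. CASP10 was 1.66-fold higher in number 2 (log2 fold change 0.73, standard error 0.15, adjusted p = 0.00323). The difference between the numbers was 0.51 on the log2 scale with the control vector and 0.97 with the YTHDF1 vector. Among the genes followed, CASP10 had these differences between the numbers farthest apart.

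The mitochondrial initiator CASP9 showed no separation of the numbers, with a log2 fold change of −0.06 and a 95% interval from −0.29 to 0.17. CASP2 was lower in number 2. It had 73.3 and 76.4 CPM in control and YTHDF1 replicate 1 and 61.8 and 68.1 CPM in control and YTHDF1 replicate 2, a log2 fold change of −0.20 (standard error 0.06, adjusted p = 0.0140). Without control replicate 2 its adjusted p was 0.158, the highest of 11 alternatives, which began at 0.00615. The executioner CASP6 was higher in number 2, with 17.9 CPM in both libraries numbered 1 and 20.8 and 21.3 CPM in control and YTHDF1 replicate 2. The log2 difference of CASP6 was 0.24 (standard error 0.07, adjusted p = 0.0146), and the adjusted p was 0.0696 without control replicate 2 and 0.103 without YTHDF1 replicate 2, within a range from 0.0137 to 0.103.

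**Figure D2:**
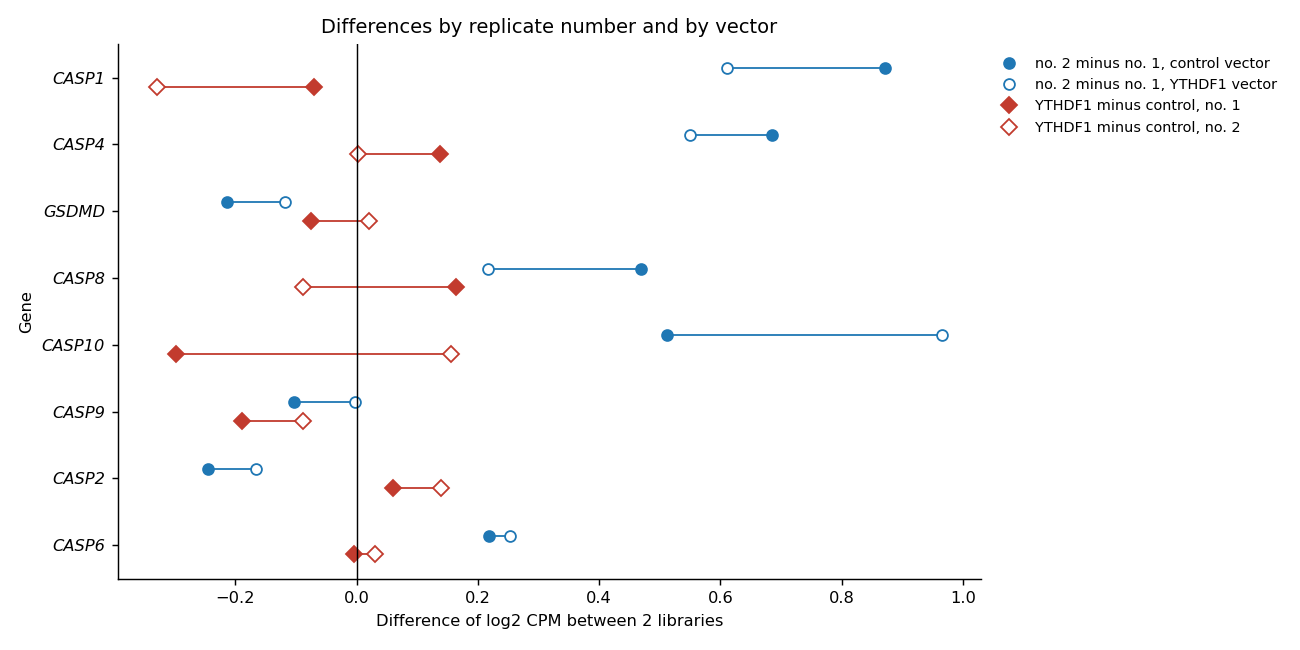
Difference of log2 CPM between pairs of libraries for each gene, with replicate number 2 minus number 1 in blue (filled for the control vector, open for the YTHDF1 vector) and YTHDF1 minus control in red (filled for number 1, open for number 2). For CASP4 the blue points lie at 0.69 and 0.55 and the red points at 0.14 and 0.00. For CASP9 the blue points lie at −0.10 and −0.003 and the red points at −0.19 and −0.088.

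In 7 of the 8 genes both differences between the numbers were larger in size than both differences between the vectors, against 57.3% of all genes tested, and CASP9 was the exception. The sign of the number difference was the same with both vectors in 8 of 8 genes, against 83.7% of all genes, and the sign of the vector difference was the same within both numbers in 4 of 8, against 49.2%. These 4 were CASP1, which was lower with YTHDF1 by 0.07 and 0.33 on the log2 scale within numbers 1 and 2, CASP9, CASP2 and CASP4. CASP2 was higher with YTHDF1 by 0.06 and 0.14.

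The summed levels of the groups followed their most abundant genes, and the apoptotic CASP10 differed between the numbers about as much as the inflammatory CASP1 and CASP4. CASP1 and CASP4 summed to 73.8 and 80.9 CPM in control and YTHDF1 replicate 1, and to 119 CPM in both libraries numbered 2. CASP2, CASP6, CASP8, CASP9 and CASP10 summed to 174 and 183 CPM in number 1 and to 192 and 194 CPM in number 2. Their ratio was 0.424 and 0.442 in control and YTHDF1 replicate 1, against 0.620 and 0.613 in control and YTHDF1 replicate 2. It was thus 1.46-fold higher in number 2 with the control vector and 1.39-fold higher with the YTHDF1 vector, while YTHDF1 over control was 1.04 within number 1 and 0.988 within number 2. These sums carry no test, since the genes were chosen with earlier results known, and a sum of CPM weighs long transcripts more. CASP4 carried the inflammatory sum, and CASP2 and CASP8 gave 80.2% to 82.7% of the apoptotic sum while moving in opposite directions. The ratio of CASP8 to CASP2 was 0.913 and 0.981 in control and YTHDF1 replicate 1 and 1.498 and 1.28 in control and YTHDF1 replicate 2.

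**Figure D3:**
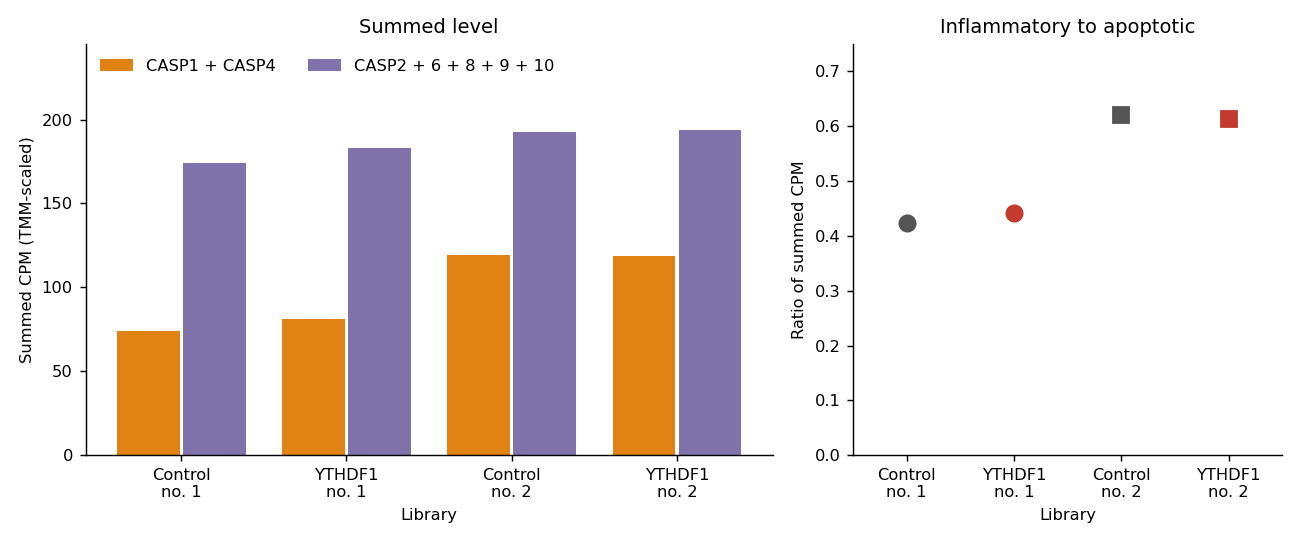
Left, summed CPM of CASP1 and CASP4 (orange) and of CASP2, CASP6, CASP8, CASP9 and CASP10 (purple) in each library, and right, the ratio of the sums, with control in grey and YTHDF1 in red. The ratio is 0.424 and 0.442 in the libraries numbered 1 and 0.620 and 0.613 in those numbered 2.

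The genes that were called also lie in gene clusters. CASP4 (chromosome 11, 104942866 to 104968574) and CASP1 (105025443 to 105036686) lie 56868 bases apart on GRCh38, with CASP5 between them, and CARD16 lies 4876 bases beyond CASP1. CASP5, another inflammatory caspase, had 0 counts in all 4 libraries. CARD16, which encodes a protein made of little more than a CARD closely related to that of CASP1, had 11 and 28 counts in control and YTHDF1 replicate 1 and 50 and 61 counts in control and YTHDF1 replicate 2. It was called higher in number 2, at 2.86-fold (log2 fold change 1.51, adjusted p = 0.0160). Since CARD16 and CASP1 are close in sequence, the counting could have split their reads, and their values are uncertain to that extent. CARD17 had 6 counts in YTHDF1 replicate 2 and 0 in the other libraries.

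On chromosome 2, CFLAR (201116164 to 201176687), CASP10 (201183141 to 201229406) and CASP8 (201233463 to 201287711) follow each other with gaps of 6453 and 4056 bases. CFLAR encodes c-FLIP, which resembles CASP8 but lacks protease activity and restrains it at death receptors. It had 56.4 and 57.6 CPM in control and YTHDF1 replicate 1 and 74.2 and 71.4 CPM in control and YTHDF1 replicate 2, so the libraries numbered 2 were higher (log2 fold change 0.35, standard error 0.05, adjusted p = 2.40e-04). The 3 neighbours were thus all higher in number 2, CASP10 by more than the others. The ratio of CASP8 to CFLAR in CPM stayed between 1.19 and 1.30 in all 4 libraries. CASP9 lies on chromosome 1 (15491401 to 15524912), CASP2 on chromosome 7 (143288351 to 143307696) and CASP6 on chromosome 4 (109664388 to 109709767). The span of CASP6 overlaps that of MCUB, and the same limit on assigning reads holds there.

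Promoter sequences from RefSeq on GRCh38.p14 were at hand for 5 of the 8 genes, with 9 start sites in all. None was at hand for CASP1, CASP10 or GSDMD, so the called genes CASP1 and CASP10 were not searched. They were searched on both strands, from 250 bases before to 30 bases after the start, for the gamma-activated site of IFN-γ signalling (GAS, TTCNNNGAA) and for the interferon-stimulated response element bound by IRF factors (ISRE, GAAANNGAAA). Of these letters the GAS is its own reverse, and the ISRE reads TTTCNNTTTC on the other strand. Of the 9, 1 start site held both motifs, the first of CASP8, and the other 8 held neither. Among all 35116 promoters in RefSeq's set 7.30% held the GAS letters, 3.39% the ISRE letters and 0.396% both. The window of CASP8 (chr2:201233213-201233492, plus strand) is shown because it is the one with matches, and that of CASP4 (chr11:104968545-104968824, minus strand) because CASP4 was the most abundant and most precisely measured of the 3 called genes. Both run 5′ to 3′, with the matched letters in capitals.
CASP8: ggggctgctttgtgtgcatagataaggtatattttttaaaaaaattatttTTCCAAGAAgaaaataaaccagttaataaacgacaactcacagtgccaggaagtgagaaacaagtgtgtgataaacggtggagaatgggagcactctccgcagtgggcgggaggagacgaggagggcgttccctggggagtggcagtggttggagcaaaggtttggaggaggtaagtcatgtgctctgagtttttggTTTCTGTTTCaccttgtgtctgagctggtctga
CASP4: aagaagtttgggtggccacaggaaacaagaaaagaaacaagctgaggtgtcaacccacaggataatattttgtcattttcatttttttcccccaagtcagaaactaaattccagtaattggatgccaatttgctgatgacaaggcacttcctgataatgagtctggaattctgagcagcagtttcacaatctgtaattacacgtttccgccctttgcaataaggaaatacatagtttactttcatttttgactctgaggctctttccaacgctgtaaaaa
In CASP8 the GAS match begins 200 bases before the start and the ISRE match begins 3 bases before it and runs across it. A match of letters is a description and not a binding site, and the absence of these letters from the CASP4 window covers that window only.

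The other genes of these pathways were taken from 7 lists with 75 genes, of which 59 were tested. Between the vectors 0 of 59 were called and 0 had an unadjusted p under 0.05, against 0% and 0.135% of all genes tested. Between the numbers 12 of 59 were higher and 9 of 59 lower in number 2, against 9.96% and 16.2% of all genes tested. The median log2 fold change was 0.07.

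Of 16 inflammasome genes 10 were tested, with 4 higher and 1 lower in number 2 (all genes, 9.96% and 16.2%). The 4 higher genes were the DNA sensors AIM2 and IFI16, the Z-nucleic acid sensor ZBP1 and PYCARD, the adaptor that links sensors to CASP1, with folds of 2.26, 3.37, 3.08 and 2.49. AIM2, ZBP1 and PYCARD, like NAIP, the 1 lower gene, were named after their values were seen. PYCARD was scarce, with 0.773 and 0.713 CPM in control and YTHDF1 replicate 1 and 1.90 and 1.80 CPM in control and YTHDF1 replicate 2. NLRP3, the best known inflammasome sensor, had 2 counts or fewer in each library.

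Among 10 genes of pyroptosis effectors and substrates 5 were tested, with 0 higher and 2 lower in number 2 (all genes, 9.96% and 16.2%). IL18, whose product CASP1 matures, had 29.8 and 26.8 CPM in control and YTHDF1 replicate 1 and 2.13 and 1.62 CPM in control and YTHDF1 replicate 2. It was 15.1-fold lower in number 2 (log2 fold change −3.92, standard error 0.13, adjusted p = 5.33e-08), in the opposite direction to CASP1. GSDME, another gasdermin, had 2.88 and 3.17 CPM in number 1 and 0.123 and 0.199 CPM in number 2, from 7 and 12 counts, and was 18.5-fold lower. IL1B had 2 counts or fewer in each library.

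**Figure D4:**
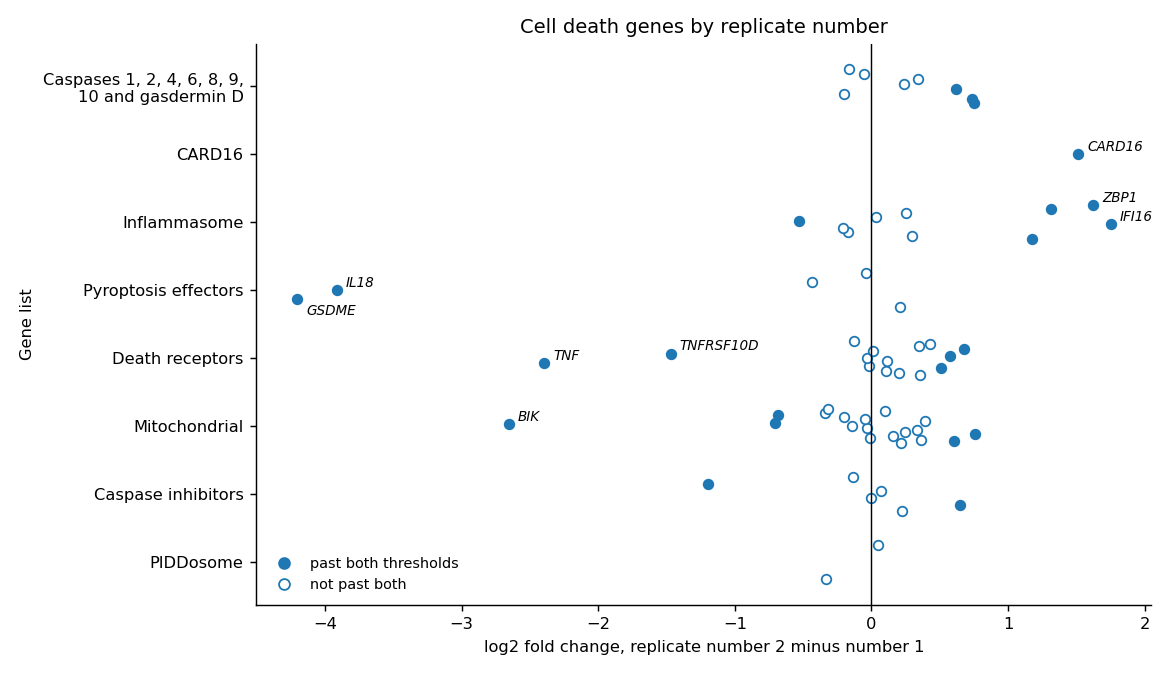
The log2 fold change of replicate number 2 minus number 1 for each tested gene of 8 rows of genes, filled where the adjusted p was under 0.05 and the fold change at least 0.5 in size. RIPK3 is left out, because its libraries numbered 1 had 0 counts. IL18 and GSDME lie farthest to the left and CASP1, CASP4 and CASP10 are the filled points of the top row.

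Of 17 death receptor genes 16 were tested, with 4 higher and 2 lower in number 2 (all genes, 9.96% and 16.2%). MLKL, the pore former of necroptosis, had 44.7 and 46.9 CPM in control and YTHDF1 replicate 1 and 65.1 and 65.6 CPM in control and YTHDF1 replicate 2 (log2 fold change 0.51, adjusted p = 3.56e-05). RIPK3, the kinase that activates MLKL, had 0 counts in both libraries numbered 1 and 16 and 13 counts in control and YTHDF1 replicate 2. Against a floor of 3 counts in each library numbered 1 it was at least 4.90-fold higher in number 2. RIPK1, the kinase that acts with RIPK3, had 54.1 and 52.9 CPM in control and YTHDF1 replicate 1 and 51.6 and 54.4 CPM in control and YTHDF1 replicate 2, so the numbers overlapped (log2 fold change −0.01, adjusted p = 0.834). The death receptor TNFRSF21 was 1.603-fold higher and the decoy receptor TNFRSF10D 2.77-fold lower in number 2, with adjusted p of 1.24e-06 and 4.75e-07. Another decoy receptor, TNFRSF10C, was called in the opposite direction, 1.49-fold higher in number 2 (log2 fold change 0.57), so the decoy receptors did not move together. FADD, the adaptor that CASP8 and CASP10 bind, had a log2 fold change of 0.20 (adjusted p = 0.0281), under the fold threshold.

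Of 20 genes of the mitochondrial pathway 19 were tested, with 2 higher and 3 lower in number 2 (all genes, 9.96% and 16.2%). BAD, which promotes death, was 1.52-fold higher and BCL2, which restrains it, was 1.69-fold higher, with adjusted p of 1.10e-04 and 2.43e-04. BIK, a BH3-only protein that promotes death, had 10.9 and 13.5 CPM in control and YTHDF1 replicate 1 and 1.82 and 2.05 CPM in control and YTHDF1 replicate 2, and was 6.29-fold lower in number 2 (adjusted p = 1.58e-06). BAK1 and BOK, pore formers of the mitochondrial membrane, had log2 fold changes of 0.36 and 0.40, which passed the adjusted p (1.58e-04 and 1.81e-04) but not the fold threshold. APAF1, on which CASP9 assembles, had a log2 fold change of 0.22 (adjusted p = 0.00460).

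Of 7 inhibitors 6 were tested, with 1 higher and 1 lower in number 2 (all genes, 9.96% and 16.2%). BIRC3, a ubiquitin ligase that restrains death receptor signalling, had 41.3 and 40.4 CPM in control and YTHDF1 replicate 1 and 64.6 and 63.3 CPM in control and YTHDF1 replicate 2, and was 1.57-fold higher in number 2 (adjusted p = 7.44e-06). SERPINB9, an inhibitor of granzyme B, had 40.8 and 45.2 CPM in number 1 and 18.3 and 19.2 CPM in number 2, and was 2.29-fold lower (adjusted p = 1.65e-06). XIAP, which binds CASP9 directly, had a log2 fold change of −0.13 (adjusted p = 0.0281). In the PIDDosome list, which serves CASP2, 0 of 2 genes were called, and CRADD had a log2 fold change of −0.33 (adjusted p = 0.0359).

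The genes with the most similar pattern over the 4 libraries, by the distance of log2 CPM centred on each gene's mean, were GNG5, LOC101927751 and INO80C for CASP4, with distances of 0.017, 0.017 and 0.018. For CASP1 they were C4orf19, ADGRF4 and TOGARAM1 (0.028, 0.062 and 0.090), and for CASP8 VMP1, GCH1 and RAPGEF6 (0.020, 0.028 and 0.033). For CASP10 they were LOC107984063, C19orf57 and GASK1B (0.023, 0.046 and 0.054). For GSDMD they were FAM43A, RUVBL1 and SPOUT1, for CASP2 ZNF282, DGUOK and TPD52, for CASP6 GNA12, GIT1 and BCL2L1, and for CASP9 ZNF316, SMIM11B and VAMP2, all within 0.024. Within a distance of 0.1 lay 127 genes for CASP4, 215 for CASP8, 9 for CASP10 and 4 for CASP1, against 889 for GSDMD and 1078 for CASP6. Such a likeness was thus common for GSDMD and CASP6 and much rarer for CASP1 and CASP10. With 4 libraries it is given as a description.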

How the data were processed

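RNA was sequenced from SNU638 cells with the control or the YTHDF1 vector, 2 replicates of each, all after IFN-γ. The labels give 8 h of IFN-γ, whereas the study's description of the sequencing gives 24 h. The deposited values are raw counts of reads per gene, not normalized. Libraries were made with a stranded poly(A) kit, and the submitters' processing notes name Trimmomatic, HISAT2 and GRCh38. The counting tool, its strand setting and the annotation release are not given in the sources used here.

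Total counts per library ran from 57398137 to 60864942. The analysis used edgeR 4.0.16 under R 4.3.3: filterByExpr left 17781 of 46427 genes, TMM scaled the libraries, and the quasi-likelihood test with Benjamini-Hochberg adjustment over 17781 genes compared the vectors and, in a separate fit, the replicate numbers given in the titles. Called genes had an adjusted p under 0.05 and a log2 fold change of 0.5 or more in either direction, the fold threshold of the study. Each standard error was the absolute log2 fold change divided by the square root of F. Differences between single libraries are of log2 CPM with a prior count of 0.5. Exon lengths are joined exons of coding transcripts in GENCODE release 29, and positions are those of RefSeq on GRCh38.p14. Floors and Poisson intervals cover counting error only, since the reads carry no molecular identifiers.

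The genes followed and the lists were chosen with earlier results of these data known. Named are the 8 genes, CASP5, CARD16 and CARD17, the 15 listed genes with the smallest p between the numbers, every listed gene called between the vectors (there were 0), and for each of the 8 genes the 3 most similar genes among those with a mean CPM of at least 1. Some genes that this rule names are not reported here. Other genes named were chosen after their values were seen. The alternatives tried were limma-voom (limma 3.58.1), the Wald test and the size factors of DESeq2 1.42.0, no filter, a minimum of 10 counts in each library, library sizes without YTHDF1, the other factor as a term, each library left out, each caspase left out of its sum, and, chosen after seeing the data, another transcript length. On simulated data the comparison of the numbers recovered 200 of 200 changed genes. That of the vectors, with the real difference between the numbers left in its spread, recovered 0 of 200. With the replicate number as a term, the comparison of the vectors recovered 200 of 200. Recovery at the fold changes and levels of the 8 genes was not tested. Figures were drawn with matplotlib 3.10.9.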

Additional observations from a re-analysis of the deposited data

Results flagged for a closer look

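For 4 of the 8 genes the difference between YTHDF1 and control had opposite signs within the replicate numbers, which is why they are listed. Over all genes tested the sign was the same within both numbers in only 49.2%, so turned signs are no trait of these genes. Each value is the difference of log2 CPM between 2 libraries. For CASP10 it was −0.30 within number 1 and 0.16 within number 2, and for CASP8 it was 0.16 and −0.088. For GSDMD it was −0.075 and 0.0202, and for CASP6 it was −0.0037 and 0.0303. These differences between the numbers were not tested, since each value rests on 1 library a vector.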

How the results depend on the processing

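Between the vectors 0 of the 8 genes were called under each of 11 alternatives. Over all genes tested, the count called rose from 0 to 3 with DESeq2's Wald test and to 8 with the replicate number as a block, and the count at an unadjusted p with the fold threshold rose from 18 to 82 without the filter on low counts, to 192 with the block, and to between 47 and 60 with 1 library left out. The labels give the replicate numbers no shared meaning, and the block served as an alternative. Deviations from the vector means correlated at 0.875 between libraries of the same number. With the block the log2 fold changes between the vectors ran from −0.21 for CASP1 (95% interval −0.63 to 0.22) to 0.10 for CASP2 (−0.01 to 0.21), and for CASP4 it was 0.07 (−0.05 to 0.18). With 1 library left out the replicate numbers are unbalanced and the lone library of a vector is assumed to vary like the others. The log2 fold change between the vectors then ran from −0.60 to 0.27 for CASP1, −0.25 to 0.44 for CASP4, −0.13 to 0.0807 for GSDMD, −0.0224 to 0.22 for CASP2, −0.12 to 0.14 for CASP6, −0.19 to 0.28 for CASP8 and −0.58 to 0.39 for CASP10. Signs turned in each of these. Between the numbers 3 of the 8 genes were called under each alternative that kept all 4 libraries. Over all genes tested 26.2% were called in the main fit, and 3599 to 4712 genes under those alternatives. With 1 library left out the call of CASP1 was not always kept, as given above. Apart from single libraries, 2 of 56 values lost their adjusted p, CASP2 without the filter and CASP6 with DESeq2's Wald test, and 0 turned. CASP9 ran from −0.15 to 0.0417 with 1 library left out, its sign turning without control replicate 1. The log2 ratio of the inflammatory to the apoptotic sum, number 2 over number 1, was 0.51, and it was 0.63 without CASP4, 0.32 without CASP2 and 0.68 without CASP8, as the sums then hold other genes. Where no construction shows a cause, the cause was not tested.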
